A study of Mus musculus with 12 samples.

Results

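The transcripts of the mitochondrial genome were examined in LSK cells of Fancg KO and WT mice. LSK cells (lineage-negative, expressing Sca-1 and KIT) are the part of the marrow in which hematopoietic stem cells and multipotent progenitors are found. Members were all rows of the deposited expression table whose gene name starts with mt-, and 13 of 35999 genes met this rule. All 13 are mRNAs. The GENCODE annotation of GRCm38 lists 37 genes on the mitochondrial genome, of which 13 are mRNAs, 2 are rRNAs and 22 are tRNAs, and the table held 0 of the rRNAs and 0 of the tRNAs, so that the comparison by RNA class was limited to mRNAs.

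The groups were 6 libraries labelled WT and 6 labelled Fancg KO, each from bone marrow, with replicate numbers 2 to 7 in both. Fancg encodes a subunit of the Fanconi anemia core complex, which acts in the repair of DNA interstrand crosslinks, and the KO mice are described as Fancg-/-, that is, homozygous for its disruption. Age and sex are not given in the sources used here. The labels do not name an individual animal for each library, and the study's text speaks of as many mice as there are libraries. The values, called signal here, are estimated read counts after division by each library's size factor.

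Mammalian mitochondrial DNA is transcribed from both strands into long precursors. The tRNAs that punctuate the precursor are cut out, and the mRNAs that this releases, most of them adenylated, are translated inside the organelle. Each of these mRNAs encodes a subunit of the respiratory chain or of the ATP synthase. The precursors are made by the single-subunit polymerase POLRMT together with TFAM, and LRPPRC with SLIRP keeps the mature mRNAs stable. Hematopoietic stem cells are known for relying little on respiration in their resting state, and they raise it when they enter differentiation. The nuclear genome also carries old insertions of mitochondrial DNA, and a sequenced fragment from such a stretch can be assigned to either place.

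Several of the values described here depend on that property, so the copies come first. Transcripts were compared in stretches of 31 bases. Of the genes of the table outside the mitochondrial genome, 15 shared at least 30 such stretches with a mitochondrial mRNA and are called nuclear copies. A block of 7 of them lies on the minus strand of chromosome 1 (GRCm38, chr1:24611535-24616197, 4663 bases), and all are annotated as unprocessed pseudogenes. In the order of the mitochondrial genome they are Gm29216 for mt-Co1, Gm28661 for mt-Co2, Gm10925 for mt-Atp6, Gm28437 for mt-Co3, Gm28438 for mt-Nd3, Gm10222 for mt-Nd4l and Gm28439 for mt-Nd4. Gm28661 matched mt-Co2 over 681 of 684 bases with 0 differences, and Gm10925 matched mt-Atp6 over 678 of 681 bases with 0 differences. Gm28437 matched 783 of the 784 bases of mt-Co3, and Gm10222 matched 294 of the 297 bases of mt-Nd4l, again with 0 differences. These annotated copies end just before the stop codon of the mitochondrial mRNA. The 3′ ends of these pairs are shown because they hold the only letters by which the paired transcripts differ. Capitals mark bases present in the mitochondrial transcript alone.

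mt-Co2: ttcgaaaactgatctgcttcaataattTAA
Gm28661: ttcgaaaactgatctgcttcaataatt
mt-Atp6: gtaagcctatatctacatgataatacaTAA
Gm10925: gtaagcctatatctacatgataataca
mt-Co3: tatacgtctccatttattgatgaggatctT
Gm28437: tatacgtctccatttattgatgaggatct
mt-Nd4l: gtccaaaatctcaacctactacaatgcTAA
Gm10222: gtccaaaatctcaacctactacaatgc

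The final T of mt-Co3 is an incomplete stop codon, which the added poly(A) tail completes, and mt-Nd4 and mt-Cytb also end in such a T. Gm28438 differed from mt-Nd3 at 1 of 345 aligned bases, which is T3C when positions are counted from 1 at the start of the mt-Nd3 coding sequence (mitochondrial base first). The first bases of this pair are shown with the differing letter in capitals.

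mt-Nd3: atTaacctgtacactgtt
Gm28438: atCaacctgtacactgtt

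The remaining members shared less with the nuclear genome. Gm28439 matched 876 of the 1378 bases of mt-Nd4 with 0 differences, and Gm29216 matched 492 of the 1545 bases of mt-Co1 with 6. A full-length copy of mt-Co1 on chromosome 2, Gm13340, was 97.6% identical. The share of 31-base stretches also found in a nuclear transcript was 100% for mt-Co2, 99.9% for mt-Co3, 99.5% for mt-Atp6, 98.9% for mt-Nd4l and 98.1% for mt-Nd3. It was 63.9% for mt-Co1, 62.8% for mt-Nd4, 16.8% for mt-Nd5, 13.5% for mt-Nd2, 7.36% for mt-Nd6, 6.55% for mt-Cytb and 0% for mt-Nd1. Gene by gene, mt-Nd1 was therefore the one mRNA without any shared stretch among the transcripts compared.

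The signal itself carried the mark of this sharing. Low values in each library piled up on multiples of 1 step, taken as what 1 read is worth. For mt-Nd1, mt-Nd2, mt-Nd6 and mt-Cytb, signal divided by the step was within 0.05 of a whole number of reads in 12 of 12 libraries. For mt-Co2 it was whole in 0 of 12 libraries and for Gm28661 in 1 of 12, yet the sum of mt-Co2 and its 2 copies was whole in 12 of 12. The sum of each of the 12 detected mRNAs with its copies was whole in 12 of 12 libraries, while mt-Nd4 alone was whole in 0, mt-Atp6 and mt-Co3 in 1 and mt-Co1 in 3. Signal of these genes was therefore divided in fractions of reads between the mitochondrial gene and its copies. Values are given both as listed and with the copies added.

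Libraries held a total signal between 1576081 and 2672915, or approximately 1235110 to 2471417 reads, of which about 11613 to 28414 fell on the mitochondrial mRNAs. With copies added, the least covered detected mRNA, mt-Nd4l, had 43 to 143 reads in a library and mt-Co1 had 4311 to 9713. Fancg did not separate the labels (signal 10.3 ± 6.96 in WT and 8.53 ± 4.18 in KO, SD, n = 6 each; two-sided exact permutation test, p = 0.636), so directions refer to labelled groups. All 9 LSK markers had a mean signal of at least 10, Kit between 283 and 435 and Ly6a, which encodes Sca-1, between 4.84 and 17.4. Summed LSK markers were 1720 to 2241 in WT and 1403 to 2110 in KO. The T and NK cell list (6 genes) summed to at most 7.37 in any library, with Ncr1 at 0 in all. Erythroid markers (8 genes) summed to 19.8 to 86.8 in WT and 23.03 to 103 in KO, with globins at or near 0. Megakaryocyte markers (4 genes) summed to 20.8 to 52.3 in WT and 32.01 to 75.3 in KO. The megakaryocyte sum had a ratio of means, KO to WT, of 1.51. It was higher in KO in 5 of the 6 pairs that share a replicate number, and it was not tested. Of the B cell markers, Ighm was at 104 to 624 and 57.3 to 427, and Cd79a was between 0 and 3.61 in all libraries. Granulocyte markers (6 genes) summed to 7.38 to 253 and 17.3 to 272, nearly all of it Elane, and monocyte and macrophage markers (5 genes) to 18.3 to 92.9 and 14.5 to 92.4. Each of these sums, and Ighm, overlapped between the labels. In bulk samples, fewer cells of a type and less RNA per cell cannot be told apart.

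The plot of all members by library shows the table as listed and after addition of the copies.

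**Figure D1:**
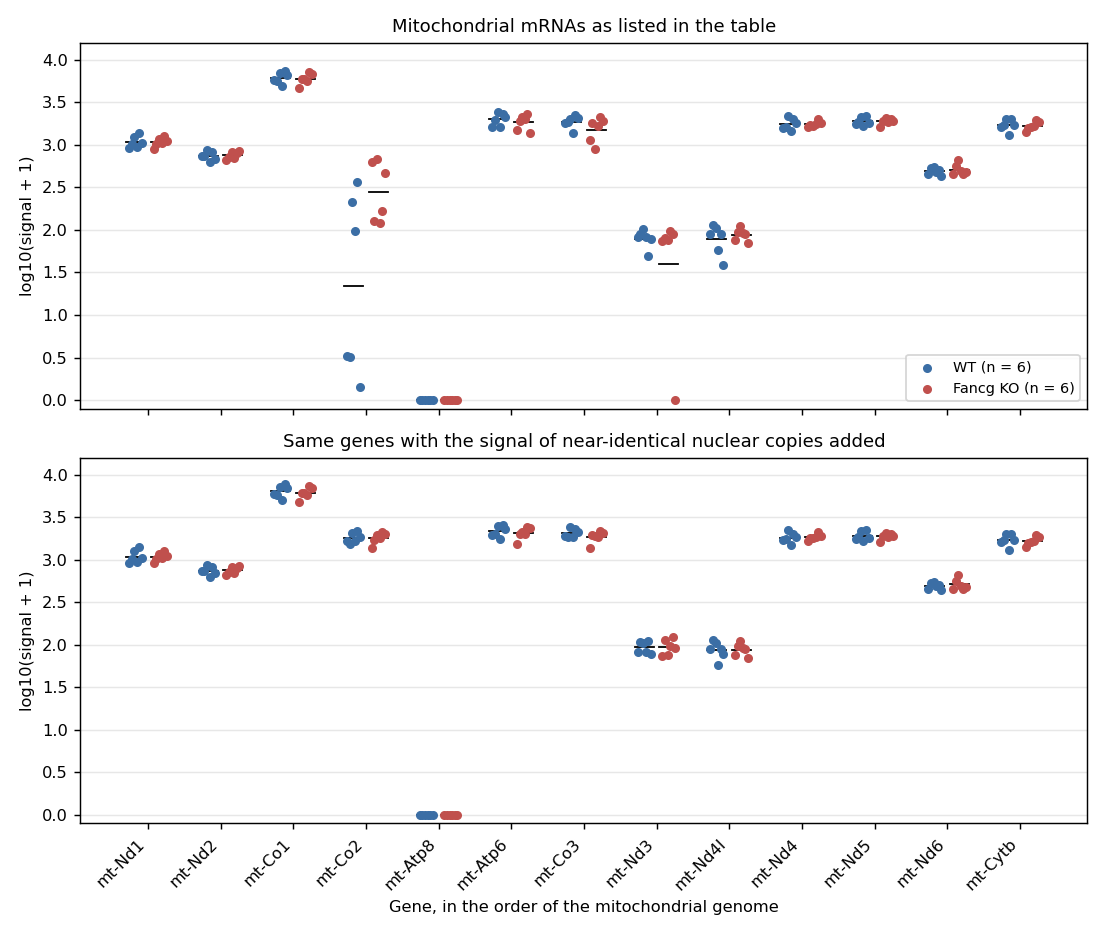
Signal of the 13 mitochondrial mRNAs in each library as log10(signal + 1), for WT (blue, n = 6) and Fancg KO (red, n = 6), with horizontal lines at the group means of the log values; upper panel as listed, lower panel with nuclear copies added. As listed, mt-Co2 spread from 0.419 to 683 and mt-Nd3 was at 0 in 1 KO library, while with copies mt-Co2 lay between 1358 and 2176 and mt-Nd3 between 73.3 and 122; mt-Atp8 was listed at 0 throughout.

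Levels differed widely among the members, and the order of levels was shared by the genotypes. Comparing signal per kilobase of transcript with copies added, mt-Co1, the catalytic core of cytochrome c oxidase (complex IV), was the highest in 12 of 12 libraries at 4072 ± 585 (SD, n = 12). It was followed by mt-Atp6, the proton channel subunit of the ATP synthase, at 3116 ± 458. The other complex IV subunits came next, mt-Co2 at 2659 ± 355 and mt-Co3 at 2520 ± 330, and mt-Co2 exceeded mt-Co3 in 9 of 12 libraries only. mt-Cytb, the cytochrome b of complex III, reached 1483 ± 201. The subunits of complex I (NADH dehydrogenase) took the lower ranks, with mt-Nd4 at 1334 ± 145, mt-Nd1 at 1141 ± 158, mt-Nd5 at 1042 ± 101, mt-Nd6 at 969 ± 121 and mt-Nd2 at 723 ± 71.8 per kilobase. mt-Nd5 and mt-Nd6 are encoded on opposite strands, and mt-Nd5 was above mt-Nd6 in 8 of 12 libraries. mt-Nd4l (296 ± 56.3) and mt-Nd3 (270 ± 47.6) were lowest among detected mRNAs, and their order held in 7 of 12 libraries. Every other step between neighbours in this order held in 12 of 12 libraries. The highest and lowest detected mRNAs lay 15.1-fold apart per kilobase. All 12 detected genes had the same rank in the WT and the KO means. The paper describes an mRNA enrichment step for these libraries, and how evenly it captured each mRNA, mt-Nd6 included, was not tested.

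**Figure D2:**
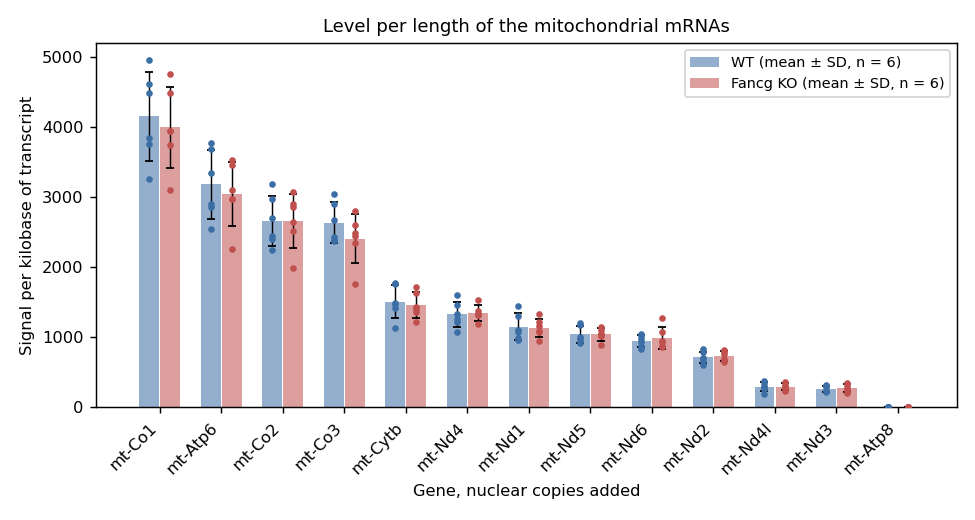
Signal per kilobase of transcript, nuclear copies added, for each mitochondrial mRNA in the order of the mean over all libraries; bars are means, error bars SD (n = 6 per label) and points single libraries, WT in blue and Fancg KO in red. mt-Co1 stood highest at a mean of 4072 and mt-Nd3 lowest among detected genes at 270, with the same rank order in both labels.

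Pairs of genes that are known to sit on 1 bicistronic mRNA did not have equal levels. mt-Nd4l and mt-Nd4 overlap by 7 bases (GRCm38, chrM:10167-10173), and mt-Nd4 was 4.51-fold higher per kilobase, above mt-Nd4l in 12 of 12 libraries. mt-Atp8 and mt-Atp6 overlap by 43 bases (chrM:7927-7969). mt-Atp8, a small subunit of the ATP synthase, was listed at 0 in 12 of 12 libraries, while mt-Atp6 ranged from 1382 to 2415 as listed. Only 13 of the 174 stretches of mt-Atp8 were shared with a nuclear transcript. mt-Atp8 (204 bases), mt-Nd4l (297 bases) and mt-Nd3 (348 bases) are the shortest mRNAs of the mitochondrial genome. The latter pair had the lowest levels per kilobase of the detected mRNAs, and the part of length in their levels and in the listed 0 of mt-Atp8 was not tested.

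Whether Fancg loss goes with a change of mitochondrial mRNAs was tested by a limma fit to log2(signal + 1). The fit covered the 8887 genes whose mean signal reached 10, among them 12 members, and exact permutation tests below are two-sided on the same scale. As listed, 1 of 12 members, mt-Co2, passed an unadjusted p of 0.05, in the direction of higher signal in KO, against 1.98% of all genes tested that were higher at that threshold, 1.69% that were lower and 3.67% in either direction. After Benjamini-Hochberg adjustment in limma, 0 of 12 members and 0% of all genes had an adjusted p under 0.05 (adjusted p = 0.9996 for each member). Non-overlapping groups were seen for 0 of 12 members, against 0.045% of all genes that lay higher in KO without overlap, 0.045% that lay lower and 0.09% in either direction. The median log2 fold change of the members, KO minus WT, was -0.00 as listed, beside 0.00 over all genes tested, with 5 members higher and 7 lower.

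mt-Co2 encodes the subunit of complex IV that receives electrons from cytochrome c. As listed, its signal in the WT libraries 2 to 7 was 2.29, 2.16, 213, 96.7, 361 and 0.419. In the KO libraries 2 to 7 it was 627, 124, 683, 120, 165 and 461. The groups overlapped, and 3 WT libraries were close to 0. Mean signal was 113 ± 148 in WT and 364 ± 260 in KO (SD, n = 6 each). The log2 fold change was 3.68 (SE 1.23, 95% interval 1.07 to 6.29, limma unadjusted p = 0.00878, Benjamini-Hochberg adjusted p = 0.9996), and KO exceeded WT in 5 of the 6 pairs that share a number. An exact sign-flip test of those pairs gave p = 0.0938. The two-sided exact permutation test without pairing gave p = 0.0476. Without replicates 2 and 3 of both labels the log2 fold change was 2.30 and did not pass an unadjusted p of 0.05.

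Its copy Gm28661 held the larger part of the pair. Gm28661 had a signal of 1530 to 1841 (median 1724) in WT and 727 to 1931 (median 1553) in KO, a log2 difference of -0.29 (SE 0.21, exact permutation p = 0.190). It exceeded mt-Co2 in 12 of 12 libraries and took between 83.4% and 99.98% in WT and between 53.7% and 93.4% in KO. With the copies added to mt-Co2, signal was 1536 to 2176 (median 1758) in WT and 1358 to 2097 (median 1881) in KO, and the groups overlapped. Means were then 1818 ± 247 and 1819 ± 262 (SD, n = 6 each). The log2 fold change became -0.00 (SE 0.16, 95% interval -0.34 to 0.33, exact permutation p = 0.987), with 3 of 6 pairs higher in KO. The difference of mt-Co2 as listed was not seen in the sum.

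**Figure D3:**
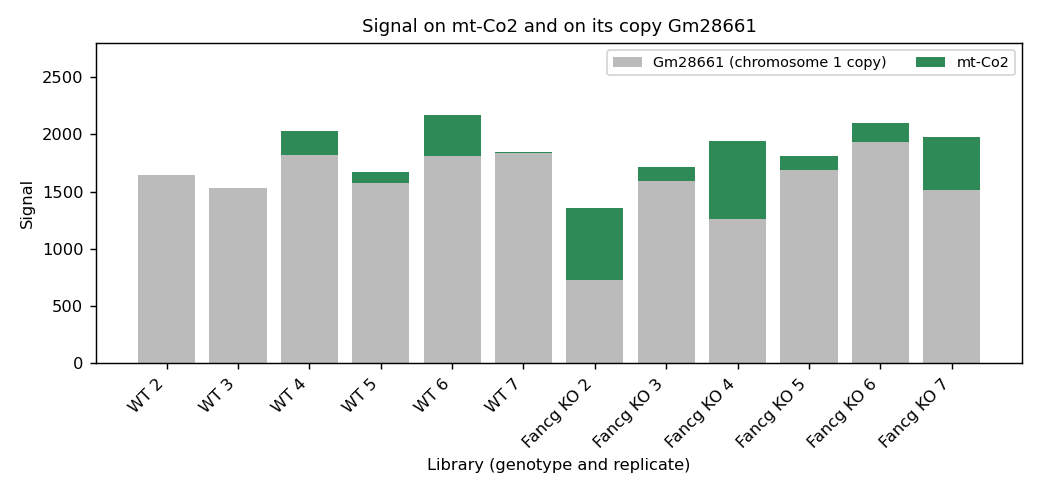
Signal of mt-Co2 (green) stacked on that of its chromosome 1 copy Gm28661 (grey) in each of the 12 libraries, by label and replicate. The green part ran from 0.419 (WT replicate 7) to 683 (KO replicate 4) while whole bars were of like height in both labels, 1818 and 1819 on average with the minor copy Gm13341 included.

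mt-Nd3, a small complex I subunit, showed the same division in single libraries. As listed it had 48.7 to 103 (median 81.0) in WT and 0 to 95.1 (median 76.4) in KO, with a log2 fold change of -1.002 (SE 0.87, exact permutation p = 0.584). The library at 0 was KO replicate 7, in which Gm28438 had a signal of 91.5. In WT replicate 6, Gm28438 held 55.4% of the pair, and it held 0% in WT replicates 5 and 7. With the copy added, mt-Nd3 had 77.8 to 109 (median 92.0) in WT and 73.3 to 122 (median 93.3) in KO, and the log2 fold change was 0.02 (SE 0.16, exact permutation p = 0.920).

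For the other members with a near-complete copy, a few libraries carried most of the divided signal. mt-Co3, a structural subunit of complex IV, had 1369 to 2211 (median 1927) in WT and 881 to 2100 (median 1731) in KO as listed. Its lowest library was KO replicate 4, in which Gm28437 held 54.1% of the pair with a signal of 1040. The log2 fold change of mt-Co3 went from -0.30 (SE 0.22, exact permutation p = 0.223) as listed to -0.14 (SE 0.16, exact permutation p = 0.277) with the copy. mt-Atp6 had its lowest listed value, 1382, in KO replicate 7, in which Gm10925 held 41.3%, and its log2 fold change was -0.11 as listed and -0.06 with the copy. mt-Nd4l had its lowest listed value, 37.6, in WT replicate 7, in which Gm10222 held 50.9%, and its log2 fold change was 0.19 as listed and 0.02 with the copy. Gm28439, the copy of mt-Nd4, ran from 0.967 to 132 in WT and from 33.1 to 134 in KO, a log2 fold change of 1.74 (SE 0.79, limma unadjusted p = 0.0434, Benjamini-Hochberg adjusted p = 0.9996; two-sided exact permutation test, p = 0.104). It held at most 7.54% of its pair, and mt-Nd4 itself had a log2 fold change of -0.00 as listed and 0.03 with the copy.

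With the copies added, the groups overlapped for each of the 12 detected members. As listed, 0.09% of all genes tested had groups without overlap. All 12 log2 fold changes, KO minus WT, lay between -0.14 (mt-Co3) and 0.06 (mt-Nd6), with 6 higher and 6 lower. An unadjusted limma p under 0.05 was found for 0 of 12 members, against 326 of 8880 genes in the same fit. Both counts are near these shares and are not read as particular to the members. The lowest exact permutation p was 0.277 (mt-Co3). The largest SD of a gene's log2 signal within a label fell from 3.54 as listed to 0.354. The 95% intervals reached from -0.47 to 0.39, or from 0.722-fold to 1.31-fold, so that changes beyond these bounds lie outside the intervals of every detected mRNA and smaller ones were not resolved. For the 5 members without a copy in the chromosome 1 block, which hardly depend on the addition, the values as listed lay between -0.04 (mt-Cytb) and 0.06 (mt-Nd6).

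**Figure D4:**
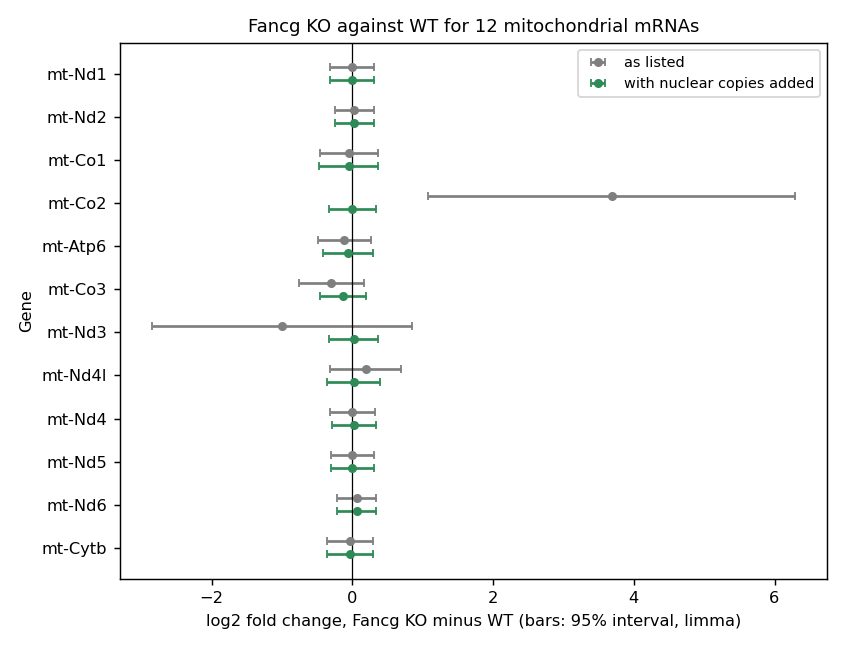
Log2 fold change, Fancg KO minus WT, with 95% interval from limma for the 12 detected mitochondrial mRNAs, as listed (grey) and with nuclear copies added (green). As listed, mt-Co2 stood at 3.68 with an interval clear of 0; with copies added every interval crossed 0 and lay between -0.47 and 0.39.

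Complex by complex, the makeup of the mitochondrial mRNA pool was close between labels. With copies added, complex IV mRNAs (3 genes) made up 50.4% ± 1.25 of mitochondrial signal in WT and 49.5% ± 1.31 in KO (SD, n = 6 each). Complex I mRNAs (7 genes) made up 30.6% ± 1.23 and 31.7% ± 1.68, mt-Atp6 10.6% ± 0.288 and 10.4% ± 0.399, and mt-Cytb 8.41% ± 0.467 and 8.40% ± 0.383. The groups overlapped for all 4 shares. mt-Co1 alone made up 31.2% of mitochondrial signal on average over the 12 libraries.

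Ratios within a library do not depend on the size factor. They were used to compare a light-strand gene with its heavy-strand neighbour, and the ends of the heavy-strand transcript. The paper does not state whether reads of the LSK libraries were assigned by strand. Signal on mt-Nd6 from the opposite strand was not tested. The log2 ratio of mt-Nd6, the one mRNA of the light-strand transcript, to its neighbour mt-Nd5 was -1.95 ± 0.14 in WT and -1.89 ± 0.17 in KO (SD, n = 6 each). The difference of 0.06 was within the spread between libraries (two-sided exact permutation test, p = 0.485, Benjamini-Hochberg adjusted p over both ratios = 0.675), with 4 of 6 pairs higher in KO. The log2 ratio of mt-Cytb, the last mRNA of the heavy-strand transcript, to mt-Nd1, the first, was 0.65 ± 0.13 in WT and 0.62 ± 0.09 in KO. That difference was -0.03 (two-sided exact permutation test, p = 0.675, adjusted p = 0.675), with 3 of 6 pairs higher in KO.

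Summed over the members, signal as listed was 14558 to 21381 (median 17753) in WT and 14666 to 20370 (median 17567) in KO. Means were 18118 ± 2644 and 17647 ± 1880 (SD, n = 6 each), a ratio of KO to WT of 0.974. With copies the means were 20429 ± 2712 and 19911 ± 2387, a ratio of 0.9746. The groups overlapped in both forms, and no test was made on these sums. Copies held 11.4% ± 1.59 of the sum in WT and 11.2% ± 2.07 in KO.

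As a share of all signal, the mitochondrial mRNAs took 0.614% to 1.18% of a WT library and 0.653% to 1.29% of a KO library. The share moved with the replicate number more than with the label. Replicates 2 and 3 of both labels had 0.614% to 0.964%, and replicates 4 to 7 had 0.870% to 1.29%. Means by label were 0.649% in WT and 0.808% in KO within replicates 2 and 3, and 1.09% and 1.04% within replicates 4 to 7, opposite in direction. What sets these replicates apart is not given in the sources used here. They also had the lowest share of Lars2, the nuclear gene of the mitochondrial leucyl-tRNA synthetase. The Lars2 row held 15.6% to 19.0% of signal in replicates 2 and 3 and 24.7% to 36.2% in replicates 4 to 7. Whether all reads in this row came from the synthetase mRNA was not tested, so its signal is not read as synthetase expression. Without Lars2 in the total, the mitochondrial share was 1.34% ± 0.477 in WT and 1.33% ± 0.396 in KO (SD, n = 6 each).

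**Figure D5:**
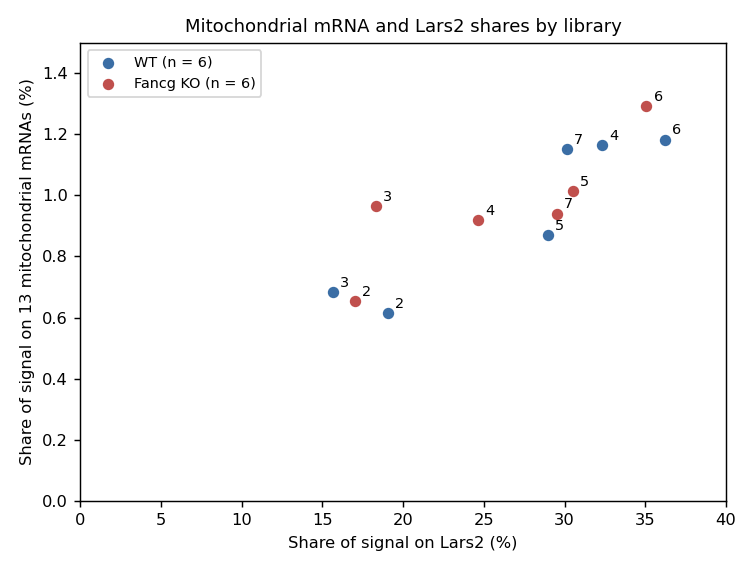
Share of signal on the 13 mitochondrial mRNAs as listed against the share on Lars2 in each library, in percent; WT in blue, Fancg KO in red, with the replicate number beside each point. Replicates 2 and 3 of both labels sat at 15.6% to 19.0% on Lars2 and 0.614% to 0.964% on mitochondrial mRNAs, and the other 8 libraries lay higher on the Lars2 axis, at 24.7% or more.

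The signals of mt-Co1 and Lars2 were correlated over the 12 libraries (Pearson r = 0.655, permutation p = 0.0204; Spearman rho = 0.671, permutation p = 0.0201), the only relation across libraries that was tested. Without the 2 libraries farthest from the median of Lars2, r was 0.746 (permutation p = 0.0136). Within WT r was 0.693 (exact permutation p = 0.125) and within KO 0.6249 (exact permutation p = 0.189), each over 6 libraries. Within replicates 4 to 7 r was 0.736 (8 libraries, exact permutation p = 0.0349), and the 4 libraries of replicates 2 and 3 are fewer than a correlation was computed for. Among these 4, the library lowest in Lars2, KO replicate 3, was the highest in mt-Co1 (5932). Leaving out WT replicate 6 gave r = 0.567 (permutation p = 0.0688), and leaving out KO replicate 2 gave r = 0.575 (permutation p = 0.0635). WT replicate 3 and KO replicate 7 were low in Y-linked transcripts (summed signal of Ddx3y, Eif2s3y, Kdm5d and Uty 26.6 and 49.7, against 189 to 435 in the other 10 libraries). Without both, r was 0.623 (permutation p = 0.0509). The 9 annotated transcripts of Lars2 shared 0 stretches of 31 bases with the genes of the mitochondrial genome. Both genes share the size factor of a library. With libraries scaled to the same sum over all genes r was 0.864, and with the sum taken over genes other than mt- genes and Lars2 it was 0.927. Either scaling divides both genes by a common value per library, so these higher r are not free of a shared factor.

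The median correlation among the members was higher once the copies were added. Over the 12 libraries, the median Pearson r of log2 signal among the 66 pairs of detected members was 0.359 as listed and 0.753 with copies, given as a description, since all members share library and size factor. mt-Co2 went from a median r with the other members of 0.233 to 0.768, and mt-Nd3 from -0.09 to 0.555. mt-Nd6, from the light strand, was an exception, with a median r of 0.303 as listed and 0.167 with copies. Among the 3107 other genes of mean signal 50 or more, the one most like mt-Co1 as listed was Cox4i1, a nuclear-encoded subunit of complex IV (r = 0.902). The ribosomal protein genes Rpl3 (r = 0.899) and Rpl17 (r = 0.885) followed. Next came Pum2, an RNA-binding repressor of translation (r = 0.875), and Eif3e, a translation initiation factor subunit (r = 0.874). These genes were picked as the highest of 3107 over only 12 libraries, so their r is high by choice and was not tested.

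The mitochondrial rRNAs were not rows of the table. The nearest row by sequence was Gm20594, annotated as protein coding (GRCm38, chr6:79817916-79818364), which shared 42 stretches of 31 bases with the 16S rRNA gene mt-Rnr2. Its signal was 728 to 1899 in WT and 876 to 1751 in KO, with a log2 fold change of -0.05 (SE 0.24, exact permutation p = 0.844). Gm20594 was between 1594 and 1899 in replicates 6 and 7 of both labels and between 728 and 1206 in the other 8 libraries. Whether these reads came from the rRNA was not tested.

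Of 64 nuclear genes listed for the making, processing and turnover of mitochondrial RNA, 63 were in the table and 46 were tested. With limma, 1 of the 46 passed an unadjusted p of 0.05, in the direction of higher signal in KO (background 1.98%), and 0 passed after adjustment. The median log2 fold change was 0.06, with 27 higher and 19 lower. This gene was Polrmt, the mitochondrial RNA polymerase, with a signal of 7.07 to 25.3 in WT and 11.7 to 29.6 in KO. Its log2 fold change was 0.70 (SE 0.33, limma unadjusted p = 0.0484, Benjamini-Hochberg adjusted p = 0.9996), and it was higher in KO in 6 of 6 pairs. The two-sided exact permutation test without pairing gave p = 0.0758. By function, 1 of 13 tested genes of mitochondrial DNA maintenance and transcription passed, 0 of 13 of RNA processing and modification, 0 of 15 of RNA stability and decay and 0 of 5 nuclear regulators of biogenesis. Leaving out each library in turn, Polrmt ran from 0.55 to 0.89 and passed the unadjusted threshold in 4 of 12 fits, those without WT replicate 6, WT replicate 7, KO replicate 3 or KO replicate 4. It missed the threshold in the other 8, and also without filter, scaled to all genes, scaled to genes other than mt- and Lars2, without WT replicate 3 and KO replicate 7 together and without replicates 2 and 3. Polrmt passed with pseudocounts of 0.5 and 5, after quantile normalization, without trend and with copies added (limma unadjusted p = 0.0469 to 0.0492). With the replicate block it also passed (limma unadjusted p = 0.0304). The count of machinery genes past the threshold became 0 without WT replicate 3, WT replicate 5 or KO replicate 7, 2 without KO replicate 3, WT replicate 6 or WT replicate 7, and 3 without KO replicate 4.

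In unadjusted exact permutation tests, 3 of the 46 genes had a p under 0.05, namely Mterf3, Trit1 and Supv3l1. None of these passed the unadjusted limma threshold. No share over all genes tested is given for the exact test, so this count is not read as a result about the machinery. Supv3l1, an RNA helicase of the mitochondrial degradosome named after its value was seen, had a log2 fold change of 0.34 (SE 0.20, exact permutation p = 0.0195). Tfam, which packages mitochondrial DNA and opens its promoters, had a log2 fold change of 0.10 (SE 0.32), and Mterf3, described as a negative regulator of mitochondrial transcription, 0.41 (SE 0.20, exact permutation p = 0.0476). Among stability factors, Lrpprc had 0.28 (SE 0.27), its partner Slirp -0.04 (SE 0.32), and Fastkd2, an RNA-binding protein of the mitochondrial ribosome's assembly, -0.45 (SE 0.28, exact permutation p = 0.177). Among processing and modification enzymes, the tRNA modifiers Trit1 and Cdk5rap1 had -0.44 (SE 0.21, exact permutation p = 0.0325) and 0.70 (SE 0.40, exact permutation p = 0.136), and Hsd17b10, a subunit of mitochondrial RNase P, had -0.32 (SE 0.20, exact permutation p = 0.110). Mean signals per label of these machinery genes lay between 11.0 and 39.9, so that each rests on few reads per library.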

How the data were processed

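RNA-seq libraries of LSK cells (6 WT, 6 Fancg KO) were taken from 1 table that the authors deposited, whose unit is a signal per gene and library, read from its name and values as estimated counts divided by a size factor. The submitters' processing notes name kallisto, and the mouse build is not given in the sources used here. All 12 columns were matched to libraries by title, and 0 columns of values were left unused. Values were not rescaled. Transcripts and positions came from GENCODE for GRCm38, in which 35929 of the 35999 names were found. Nuclear copies were genes sharing at least 30 stretches of 31 bases with a mitochondrial mRNA, and their signal was added to it as an alternative chosen after seeing the data.

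Genes whose mean signal reached 10 were tested on log2(signal + 1), a scale that understates changes of low genes, with limma 3.58.1 in R 4.3.3 (trend, two-sided, Benjamini-Hochberg over 8887 genes, no covariate). Single ratios were tested by exact permutation in Python 3.11.15, and correlations by permutation (100000 resamples, or all orders with 8 or fewer libraries). The smallest p of an exact test of 6 against 6 is 0.00216. The fit was checked on simulated data. Planned sums, ratios and correlations with rRNAs or tRNAs could not be made, since the table held none. Genes named were all members, Polrmt, Tfam, Lrpprc, Slirp, the 3 machinery genes of lowest p per direction, Lars2 and the 5 genes most like mt-Co1. Copies, Gm20594, Supv3l1 and the Y-linked genes were named after their values were seen. The members and lists were chosen with earlier results of these data known. Sources do not say whether libraries of a label came from separate sorts, and p-values measure the spread between these libraries. Alternatives were other pseudocounts, filters and scalings, limma without trend, a replicate block and libraries left out. The sum over the B cell marker list is not reported here.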

Additional observations from a re-analysis of the deposited data

Results flagged for a closer look

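Of 56 groups of 6 libraries examined for a library far from the others, 1 stood out, and chance gives about 1 in 20, or 2.8 here. It was mt-Nd3 in the KO label, at a signal of 0 in replicate 7 against 73.1 to 95.1 in the other 5 libraries (gap divided by range 0.769). With its copy Gm28438 added, KO replicate 7 had 91.5 and no longer stood apart.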

How the results depend on the processing

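Depth limits the low genes, and differences under the interval widths given were not resolved. The count of members past the unadjusted limma threshold was 1 and became 0 with copies added, with or without the replicate block. As listed, it stayed at 1 with the block and became 0 without replicates 2 and 3. mt-Co2 became -0.0022 with copies, with and without the block, and 2.30 without replicates 2 and 3. Of 300 values of single members under alternatives, 51 changed sign, each to at most 0.095 in size.

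With copies, mt-Nd3 became 0.016 and mt-Nd4 0.025, with and without the block. Scaled to genes other than mt- and Lars2, mt-Co1 was 0.0054, mt-Cytb 0.020, mt-Nd1 0.048 and mt-Nd4 0.055; scaled to all genes they were 0.031, 0.045, 0.073 and 0.080; after quantile normalization 0.069, 0.033, 0.094 and 0.085. These scalings moved the median of all genes by under 0.1. Without replicates 2 and 3, mt-Cytb was 0.028. Without WT replicate 3 and KO replicate 7, mt-Nd2 was -0.0063, mt-Nd3 0.095, mt-Nd4l 0.363, mt-Nd5 -0.012 and mt-Nd6 0.103. The causes were not tested.

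Genes past it numbered 326 of 8887 (176 higher, 150 lower), 91 of 3119 with a filter of 50 and 836 of 21536 without filter. They numbered 125 of 9053 scaled to genes other than mt- and Lars2 (89 higher, 36 lower) and 244 of 8956 scaled to all genes (194 higher, 50 lower). Machinery genes numbered 1 of 46, and 0 under either scaling and without WT replicate 3 and KO replicate 7. The filter of 50 left only 5 of them to test, without Polrmt, and gave 0. Without filter the count was 1 of 63, a gene lower in KO and so not Polrmt. It was 2 after quantile normalization, without trend, without replicates 2 and 3, and with the replicate block, with or without copies.

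Same-numbered libraries had correlated deviations of 0.0862 to 0.362 (mean 0.196, other numbers -0.039), and 5 of 6 WT libraries correlated best with their own number. Not all values were above 0.1, so the numbers were not taken as pairs in the main tests. The main p-values therefore leave out what same-numbered libraries share. The block gave 476 genes, and mt-Co2 kept its side of the unadjusted limma threshold. With the block and copies added, 0 of 12 members passed (lowest limma unadjusted p = 0.239), against 475 of 8880 genes. The exact sign-flip p over the 6 pairs was 0.0938 for mt-Co2, 0.438 for mt-Nd6 to mt-Nd5 and 0.688 for mt-Cytb to mt-Nd1.

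Leaving out each library in turn, mt-Co2 ran from 2.89 to 4.49, mt-Co1 from -0.12 to 0.021, mt-Cytb from -0.12 to 0.013, mt-Nd1 from -0.056 to 0.063, mt-Nd2 from -0.017 to 0.072, mt-Nd3 from -1.26 to 0.058 (above 0 without KO replicate 7), mt-Nd4 from -0.061 to 0.063, mt-Nd4l from -0.015 to 0.30, mt-Nd5 from -0.034 to 0.047, mt-Nd6 from -0.011 to 0.099, mt-Atp6 from -0.18 to -0.033 and mt-Co3 from -0.40 to -0.15. The ratio mt-Cytb to mt-Nd1 ran from -0.067 to 0.0048 and mt-Nd6 to mt-Nd5 from 0.015 to 0.11. All-gene counts ran from 275 to 383, machinery counts from 0 (without WT replicate 3 or 5 or KO replicate 7) to 3 (without KO replicate 4), and member counts stayed at 1.

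The correlation of mt-Co1 with Lars2 ran from 0.567 (without WT replicate 6) to 0.799, was 0.693 within WT and 0.6249 within KO, and 0.623 without WT replicate 3 and KO replicate 7. Scaled to other genes it was 0.927 and scaled to all genes 0.864, each with a divisor common to both genes. Quantile normalization gives it no value, because Lars2 is the highest gene in every library.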
